A study of Mus musculus with 8 samples.

Results

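The initiation, elongation and release factors other than the cap-binding group were examined in the polysomal and non-polysomal RNA of mouse oocytes. The members were the rows of the gene table whose symbol begins with Eif1, Eif2, Eif3, Eif5, Eif6, Eef1 or Eef2, together with Etf1, Gspt1 and Gspt2, leaving out the Eif4 genes, the eIF2 kinases and symbols of pseudogenes. This rule found 50 of the 25574 rows. Among them, 6 rows carry Eif2c symbols, which are older names of Argonaute genes, and were set aside, so that 44 translation factor genes remained: 5 of the eIF1 and eIF1A group, 3 eIF2 subunits, 5 eIF2B subunits, Eif2a and Eif2d, 13 eIF3 subunits, Eif5 and Eif5b, Eif6, 2 eIF5A genes, 6 genes of the eEF1 group, Eef2, the eEF2 kinase gene Eef2k and 3 release factor genes. Oocytes entering nuclear envelope breakdown (NEBD) were lysed and sedimented through a 10 to 50% sucrose gradient collected in 10 fractions, by a polysome fractionation for small samples called SSP-profiling. RNA of fractions 2 to 5 formed the non-polysomal (NP) dataset and RNA of fractions 6 to 10 the polysomal (P) dataset, with 4 libraries each, numbered 1 to 4. All libraries came from CD1 females of 8 weeks that had received 5 IU of PMSG 46 h before collection. Each profile held 200 pooled oocytes, which had been collected in 100 µM IBMX, cultured without it for 180 min and exposed to cycloheximide (0.1 mg/mL, 10 min). Both datasets share all of this and differ in the part of the gradient.

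Initiation in eukaryotes starts when eIF2 carries the initiator tRNA, in its GTP-bound form, to the small ribosomal subunit, which is held open by eIF1, eIF1A and the many-subunit scaffold eIF3. eIF5 triggers GTP hydrolysis at the start codon, eIF2B recharges eIF2 with GTP, eIF5B joins the large subunit and eIF6 keeps free large subunits from joining. Elongation then runs on eEF1A, which brings aminoacyl-tRNAs, and eEF2, which moves the ribosome, until the release factors eRF1 and eRF3 end the chain. A fully grown oocyte does not transcribe at this stage, so its proteins are made from stored mRNAs, and an mRNA found among polysomes is taken to carry several ribosomes.

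Messengers of the translation apparatus are known for a run of pyrimidines at their very 5′ end, called the TOP element, and the starts of the members are therefore shown first. RefSeq (GRCm38.p6) starts were matched by symbol for 34 of the 44 genes. A C followed by at least 4 bases that are C or T, beginning within 5 bases of the annotated start, was found for 8 of these 34 genes (23.5%) and for 21.2% of the 27025 symbols with an entry. Each line below gives 8 bases before the annotated start and 17 bases from it on the coding strand, with the run in capitals.
Eef1a1, chr9:78481708-78481732, minus strand: ccgCCCTCTTCCCgagggtggggga
Eif3f, chr7:108934407-108934431, plus strand: taggCTCTCTCTCTTTCTCggcaag
Eif3l, chr15:79075215-79075239, plus strand: gttcttcttccgCTCTCTCCCacgg
Eif2b2, chr12:85219473-85219497, plus strand: gagcggaagttgaCCTCTCTCggcc
Eif2b5, chr16:20498809-20498833, plus strand: ctttCTCTCCCTgcaactacacctt
Eif2b1, chr5:124579115-124579139, minus strand: gatttccggcgccgacgagtgacgc
Eef2, chr10:81176623-81176647, plus strand: ggccgggcgttgacgtcagcggtct
The other genes with a run were Eif3b, Eif1ad and Eif2s3x, and Eif2b1 and Eef2 are printed as members without a run in this window. Such a run is a match of letters around an annotated start, and whether the oocyte messengers begin there was not measured.

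Depth was limited and uneven. FPKM values (fragments per kilobase of gene, scaled to the reads of the library) rise in steps, from which a scaling number was recovered. It ranged from 1299377 to 7594637 over the NP libraries and from 2677946 to 4699328 over the P libraries. For 1 kb of gene, each step was then worth an FPKM between 0.132 and 0.770. Summed over genes, the steps exceeded the scaling number in every library, as with 5388202 against 3192245 in NP replicate 1. Whether a step stands for 1 sequenced read, and the scaling number for all reads, was not tested. For 42 factor genes the steps, called reads from here on, could be recovered, with a median of 381 per gene and library. Of their 336 values, 16 stood for fewer than 10 reads and 4 of those for none. The SDs and standard errors given here cover the spread between 4 libraries, and amplified cDNA read without molecular identifiers does not count molecules. The 12 oocyte marker genes had mean FPKM values above 1 and summed to between 6610 and 34072 per library. By contrast, 2 of 11 granulosa and cumulus markers, none of 7 markers of theca and stroma and 1 of the 4 blood markers in the table had such means, with Foxl2, Amhr2, Has2, Inhba and Ptx3 at 0 in each library. The granulosa and cumulus list, led by Cyp19a1 at a mean of 24.8, summed to 15.3 to 93.7 over the NP libraries and to 2.58 to 64.0 over the P libraries, and its part in the results was not tested.

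The factor mRNAs were abundant in both datasets. Values above 0 were found in all 8 libraries for 39 of the 44 genes (88.6%), against 28.1% of all 25574 genes, and the mean FPKM of P was above 50 for 18 (40.9%), against 7.22% of all genes. Within each library, the median of the members stood between percentiles 78.4 and 85.2 of the genes tested, and the median percentile was 81.5 in NP and 82.6 in P. Their FPKM values added up to 2.34% ± 0.963 of the NP total (SD, n = 4) and to 2.28% ± 1.16 of the P total. The highest of them were Eif3k, Eef1a1, Eif3l, Eif3d, Eif6 and Eef2. Only Eef1a2, the form of eEF1A of muscle and neurons, was at 0 in every library.

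**Figure D1:**
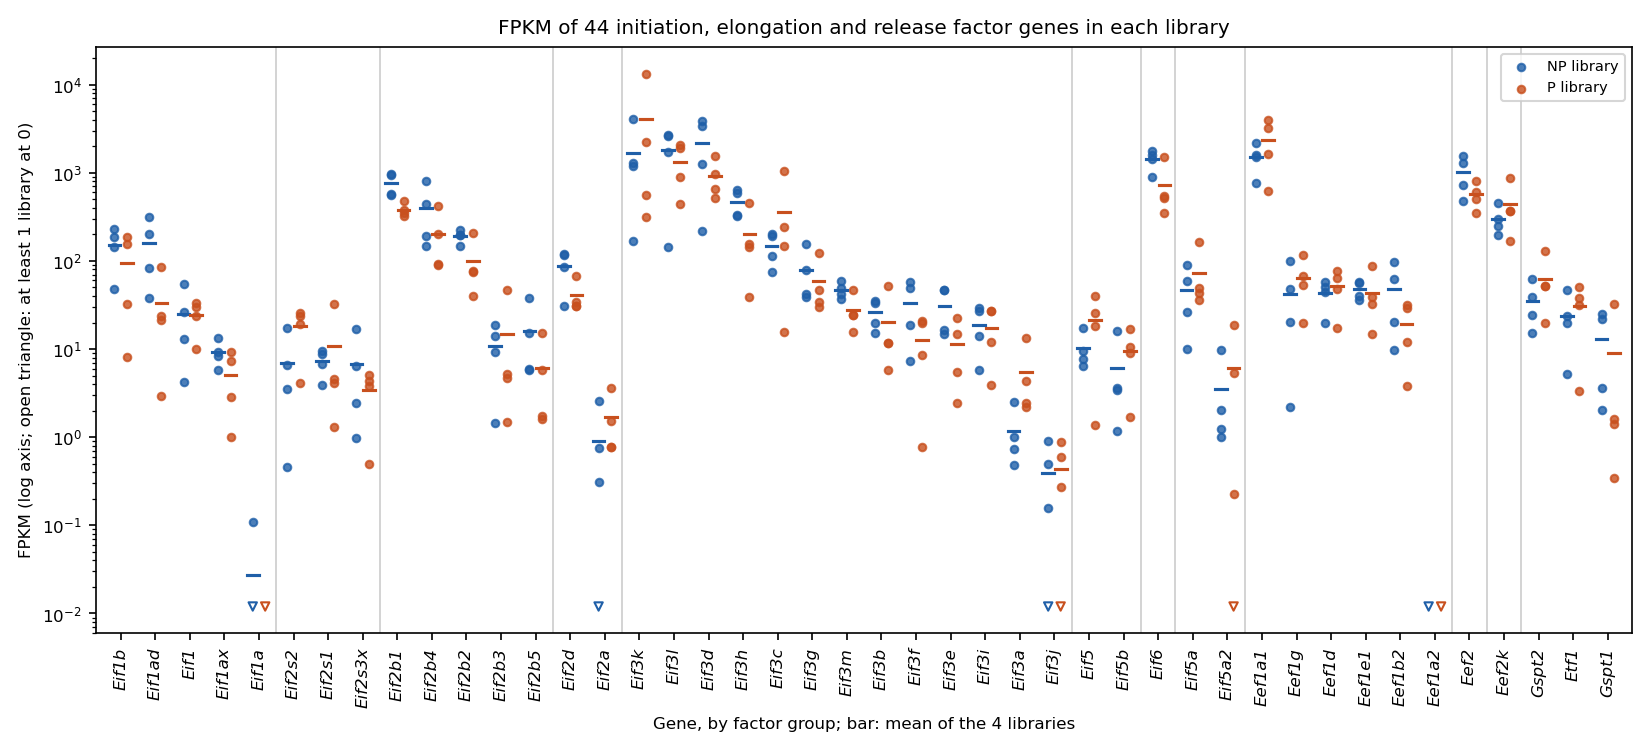
FPKM (logarithmic axis) of the 44 factor genes in each NP library (blue points) and P library (orange points), by factor group, with the mean of the 4 libraries as a bar and a triangle where at least 1 library was at 0. Subunit mRNAs of the same complex lie far apart, from Eif3j at a mean of 0.413 to Eif3k at 2899 within eIF3, and libraries of the same dataset spread widely, as for Eif3k from 314 to 13323 in P.

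Differences between P and NP were then tested by limma, as log2(FPKM + 1), for the 14292 genes whose mean FPKM exceeded 0.1 in P or in NP. No factor gene was called. Of the 42 tested, 0 passed an adjusted p below 0.1, and the smallest adjusted p was 0.416, where 3 of all genes tested passed (0.021%). At an unadjusted p below 0.05, 2 members had lower values in P, Eif1ad and Eif3h, against 9.47% of all genes, and 0 had higher values, against 0.476% of all genes. Fold changes (log2, P over NP) lay below 0 for 25 and above 0 for 17 members, with a median of −0.29, and 71.4% of all genes were below 0, with a median of −0.39. Relative to all genes, the median fold change of the members was therefore 0.10 higher. When the median level of the members was instead set against that of all genes within each library, it lay above it by 2.78 ± 0.351 in NP and by 3.40 ± 0.264 in P (log2 scale, SD, n = 4), a difference of 0.62. The ranges of 2.33 to 3.13 in NP and 3.07 to 3.66 in P overlapped, so the size of the difference between members and other genes depended on how the median was taken. Within a dataset the median SD of the members was 1.12 on the log2 scale, against 0.974 over all genes tested. The members stood at higher levels than most genes, and genes of like level were not compared. Since a library describes the makeup of a fraction, a lower FPKM in P cannot be told apart from a larger share taken by other mRNAs. Between replicates, fewer oocytes of a kind in a pool cannot be told apart from less RNA per oocyte.

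**Figure D2:**
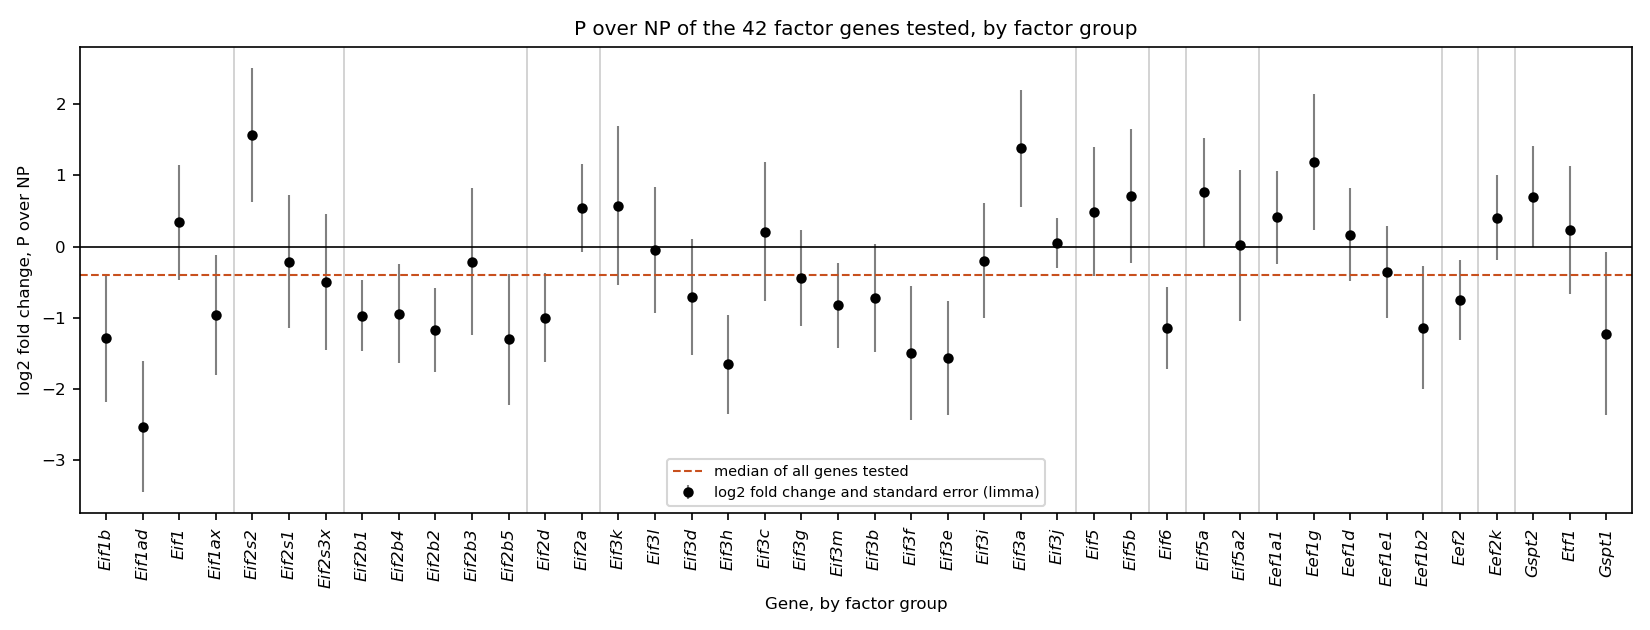
Log2 fold changes of P over NP (points) with their standard errors (bars) for the 42 factor genes tested, by factor group, with the median of all genes tested as a dashed line at −0.39. The 5 eIF2B genes lie below 0 (4 of them above 0 with libraries scaled to a common median), Eif2s2, Eif3a and Eef1g lie highest, and no member passed an adjusted p below 0.1.

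In the group of eIF1 and eIF1A, formed by symbol, Eif1ad had the fold change farthest from 0 of all members. Eif1ad (chr19:5366813-5371511), whose protein has an eIF1A-like domain but is not one of the scanning factors, was measured at FPKM values of 38.4, 82.3, 203 and 311 in NP replicates 1 to 4 and of 23.6, 2.91, 21.6 and 86.4 in P replicates 1 to 4. The lowest NP values lay below the highest P value, so the datasets overlapped. Its log2 fold change was −2.53 (SE 0.92, limma adjusted p = 0.416), and it stayed below 0 under every scaling. For Eif1b and Eif1, which encode near-identical forms of the start codon selection factor eIF1, the expressed form was mainly Eif1b. Eif1b values were 186, 231, 47.5 and 145 in NP and 185, 32.3, 8.10 and 156 in P. Eif1 was at 55.1, 26.4, 12.9 and 4.27 in NP and at 33.0, 23.8, 30.0 and 10.1 in P. Within a library Eif1b exceeded Eif1 in 7 of 8 cases, P replicate 3 being the exception with a ratio of 0.270, and the ratio reached 34.0 in NP replicate 4. Log2 fold changes were −1.28 (SE 0.90) for Eif1b, which moved to 0.03 with libraries scaled to a common median, and 0.34 (SE 0.80) for Eif1, which was −0.26 without NP replicate 4. Of the 2 genes for eIF1A, the X-linked Eif1ax was read in all libraries, at means of 9.19 ± 3.07 in NP and 5.12 ± 3.84 in P (SD, n = 4), and Eif1a only in NP replicate 1, at 0.109.

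The 3 subunits of eIF2 itself were rare compared with the regulatory core of eIF2B, the factor that recharges eIF2. The catalytic eIF2B genes Eif2b5 and Eif2b3 were as low, with means of 11.1 and 12.8 over the 8 libraries, against 12.6 for Eif2s2. The FPKM of the 3 eIF2 genes summed to 20.9 ± 12.7 in NP and 32.4 ± 19.4 in P (SD, n = 4). Eif2s2, the beta subunit (chr2:154871410-154892935), was at 3.48, 0.456, 17.2 and 6.63 in NP and at 25.6, 24.0, 19.3 and 4.15 in P. In 3 of 4 P libraries the value was above each NP value, and P replicate 4 lay among the NP libraries. The value of NP replicate 2 stood for 4 reads. The log2 fold change of 1.57 (SE 0.94, limma adjusted p = 0.572) was the highest of the 42 members and kept its sign under every alternative. Eif2s2 lies within the transcribed span of the gene named a on the opposite strand, whose mean FPKM was 1.08 in NP and 0.708 in P. Eif2s3x, the X-linked gamma subunit that binds the initiator tRNA and GTP, gave 0.986, 2.42, 6.38 and 17.1 in NP and 5.02, 0.491, 4.31 and 3.82 in P. Here P replicate 2 was the lowest and NP replicate 4 the highest of the 8 libraries, the others being mixed, and the log2 fold change of −0.50 (SE 0.95) turned to 0.33 after quantile normalization. Eif2s1, the alpha subunit that the eIF2 kinases phosphorylate, had means of 7.28 ± 2.51 and 10.7 ± 14.8, with P replicate 3 highest at 32.8.

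The pair of factors that can deliver tRNA without eIF2 was represented mainly by Eif2d. Eif2d (chr1:131153181-131187658) was at 118, 119, 30.6 and 85.01 in NP and at 34.5, 31.0, 66.9 and 30.9 in P, so NP replicate 3 lay below all P libraries and the other 3 NP libraries above them. The log2 fold change was −0.995 (SE 0.63, limma adjusted p = 0.595) and became 0.32 under the common median. Rassf5, transcribed from the opposite strand, overlaps Eif2d over 11249 bp and had means of 57.5 in NP and 28.7 in P. Reads of the 2 genes cannot be told apart where a library is not stranded, and the sources used here do not give the strand used in counting. Eif2a stayed at or below 3.66 in each library, and Eif2d exceeded it in all 8.

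Of the groups with at least 3 genes, eIF2B was the only one with all fold changes on the same side. Each of its 5 genes had a log2 fold change below 0, from −1.30 for Eif2b5 to −0.21 for Eif2b3, against 71.4% of all genes below 0. Summed over the 5 genes, FPKM was 1373 ± 539 in NP and 703 ± 230 in P (SD, n = 4). Eif2b1, the alpha subunit of its regulatory core (chr5:124570213-124579131), was the only member whose datasets did not overlap with FPKM as deposited. After quantile normalization and with libraries scaled to a common median, its datasets overlapped. It was at 962, 941, 558 and 581 in NP and at 474, 321, 374 and 351 in P, so each P library was below each NP library. Such a separation with lower values in P was found for 5.92% of all genes tested and, with higher values in P, for 0.357% of all genes and 0 members. Eif2b1 also varied least of all members within a dataset, with an SD of 0.347 on the log2 scale. Its log2 fold change was −0.97 (SE 0.50, limma adjusted p = 0.528).

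Eif2b2 and Eif2b4, the beta and delta subunits of the same core, were next in level. Eif2b2 had means of 191 ± 31.7 in NP and 99.4 ± 72.5 in P, and its P values of 40.2, 77.1 and 75.2 lay below each NP value, the lowest of which was 148, whereas P replicate 4 at 205 lay within the NP range. Eif2b4 had means of 394 ± 299 and 202 ± 156. The catalytic pair was far lower. Eif2b5, the epsilon subunit that carries out the nucleotide exchange, was at 37.9, 15.1, 5.74 and 5.91 in NP and at 15.1, 1.75, 5.82 and 1.63 in P. Eif2b3, the gamma subunit, was at 18.8, 14.0, 9.33 and 1.45 in NP and at 47.2, 4.74, 1.48 and 5.15 in P. For both the libraries of the datasets were mixed. Over the 8 libraries the mean FPKM of Eif2b1 was 51.3 times that of Eif2b5, although the complex holds its subunits in equal number. The direction of the group depended on the scaling: with libraries scaled to a common median, Eif2b1, Eif2b2, Eif2b3 and Eif2b4 had log2 fold changes of 0.37, 0.16, 0.92 and 0.39, and that of Eif2b5 was −0.21.

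Within eIF3, the scaffold that binds the small subunit, the mRNA levels of the 13 subunits spanned a factor of 7027. Most of the FPKM came from 3 genes. Eif3k, Eif3l and Eif3d together held between 49.2% and 95.1% of the eIF3 sum in a library, with a median of 86.5%. Eif3k, a peripheral subunit (chr7:28971373-28981814), was at 4094, 1298, 1197 and 167 in NP and at 13323, 314, 563 and 2238 in P. P replicate 1 alone held the highest value of any factor gene, and the other P libraries lay within the NP range. Its log2 fold change of 0.58 (SE 1.11) became −0.47 without P replicate 1 and −0.29 without NP replicate 4. Eif3l, which pairs with Eif3k in the complex, was at 2706, 2640, 1719 and 144 in NP and at 1906, 886, 446 and 2089 in P. Eif3d, the subunit that can bind caps itself, was at 3851, 3387, 1245 and 220.5 in NP and at 1556, 980.3, 653 and 513 in P. All 3 genes were lowest in NP replicate 4, where each lay below its 4 P values.

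Eif3h had the lowest and Eif3a the highest fold change of the eIF3 subunits. Eif3h (chr15:51786558-51865481) was at 635, 590.3, 332 and 324 in NP and at 459.9, 142, 39.1 and 157 in P. P replicate 1 lay within the NP range and the other 3 P libraries below it. The log2 fold change was −1.65 (SE 0.69, limma adjusted p = 0.470), stayed below 0 under every scaling and was −0.32 with the common median. Eif3e and Eif3f had log2 fold changes of −1.56 and −1.49 and also kept this sign in every alternative. Eif3a, the largest subunit and the backbone of the complex (chr19:60761116-60790693), was among the rarest, at 0.484, 0.743, 1.009 and 2.52 in NP and at 4.36, 13.3, 2.17 and 2.45 in P. Only NP replicate 4 reached the P values. Its NP values stood for only 8, 5, 38 and 99 reads. The log2 fold change was 1.38 (SE 0.82, limma adjusted p = 0.570). After quantile normalization the datasets no longer overlapped, as for 4.62% of all genes with higher values in P.

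Of the 13 subunits, 9 had log2 fold changes below 0 and 4 above 0, with a median of −0.44, which is 0.05 below the median of all genes. Apart from Eif3k, Eif3h, Eif3e, Eif3f and Eif3a, they ranged from −0.82 for Eif3m to 0.21 for Eif3c. The latter, the second large subunit, reached 1034 in P replicate 4 against 15.5 in P replicate 3, and was at −0.69 without P replicate 4. Eif3j, a loosely bound subunit, stood for 0 reads in NP replicate 2 and P replicate 4 and for at most 0.913 FPKM elsewhere. Spg11, on the opposite strand, overlaps Eif3j over 3079 bp with means of 2.90 in NP and 16.97 in P. NP replicate 4 was the lowest NP library for 8 of 13 eIF3 genes (61.5%), against 37.3% of all genes, and P replicate 1 was the highest P library for 8, against 33.5% of all genes. For the 42 members as a whole these counts were 16 and 23. Whether library quality had a part in this was not tested.

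**Figure D3:**
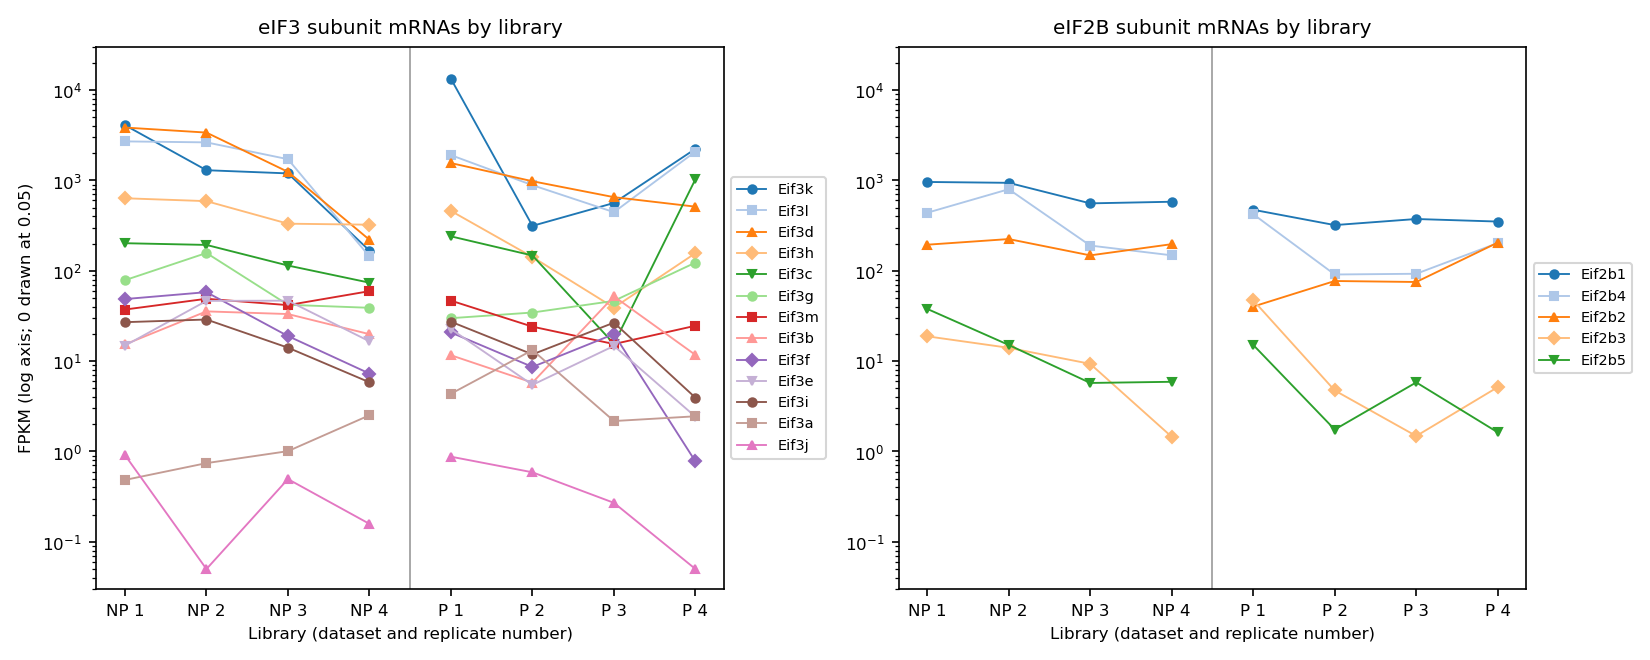
FPKM (logarithmic axis) of the 13 eIF3 and 5 eIF2B genes in each library, in order of mean level in the legends, with lines that only help to follow a gene since replicates have no order. Eif3k, Eif3l and Eif3d dropped together to between 144 and 220.5 in NP replicate 4, and Eif2b1 stayed between 321 and 474 in P and between 558 and 962 in NP.

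The factors of start codon commitment and subunit joining were of moderate abundance. Eif5, the GTPase activator of eIF2, was at 7.79, 6.44, 17.5 and 9.56 in NP and at 25.8, 39.9, 18.2 and 1.38 in P. The first 3 P libraries were above all NP libraries and P replicate 4 was below them all, so the log2 fold change was 0.49 (SE 0.91) and reached 1.38 without P replicate 4. Eif5b, the GTPase of subunit joining, had means of 6.05 ± 6.70 in NP and 9.48 ± 6.22 in P. Eif6, the anti-association factor of the large subunit (chr2:155819832-155826925), was by contrast among the most abundant factors. It was at 1769, 1605, 899 and 1417 in NP and at 517, 353, 543 and 1522 in P, so 3 P libraries lay below all NP libraries and P replicate 4 within them. The log2 fold change was −1.15 (SE 0.57, limma adjusted p = 0.525) and 0.19 under the common median.

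eIF5A, which relieves ribosomes that stall during elongation and carries the modified residue hypusine, was mainly expressed from Eif5a. Eif5a was at 90.1, 59.2, 26.1 and 9.92 in NP and at 162, 49.2, 43.5 and 35.8 in P, with overlapping datasets and a log2 fold change of 0.76 (SE 0.76). Eif5a2 was at 1.004, 1.23, 2.04 and 9.68 in NP and at 5.33, 0, 0.225 and 18.6 in P. Eif5a exceeded it in all 8 libraries, by ratios from 1.02 in NP replicate 4 upwards. The genes of the eIF5A-modifying enzymes are described with the other pathway genes.

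Elongation was represented by some of the most abundant mRNAs. Eef1a1, the carrier of aminoacyl-tRNA (chr9:78478449-78489151), was at 2197, 1595, 1529 and 775 in NP and at 3985, 1627, 3236 and 625 in P. P replicates 1 and 3 lay above all NP libraries, P replicate 2 within them, and P replicate 4 was the lowest of the 8. The log2 fold change was 0.41 (SE 0.65, limma adjusted p = 0.790). Processed copies of Eef1a1 are common in the genome and reads could be shared with them. The nucleotide exchange subunits of eEF1 were much lower and moved in different directions. Eef1g, the gamma subunit, was at 99.0, 47.7, 20.4 and 2.23 in NP and at 117, 53.4, 67.5 and 19.5 in P. Its datasets overlapped, and the log2 fold change of 1.19 (SE 0.96) kept its sign under every alternative. Eef1b2, a catalytic exchange subunit, was at 9.65, 98.2, 20.5 and 62.6 in NP and at 31.7, 3.82, 12.2 and 28.9 in P, with a log2 fold change of −1.14 (SE 0.87) that became 0.12 under the common median.

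Eef2, the translocase (chr10:81176631-81182507), was at 1274, 1556, 725 and 482 in NP and at 505, 608, 349 and 809 in P. The log2 fold change was −0.75 (SE 0.56, limma adjusted p = 0.644) and turned to 0.59 under the common median. Eef2k, whose kinase inactivates eEF2, was also abundant, at 247, 301, 195 and 449.5 in NP and at 372, 369, 169.9 and 872 in P, with a log2 fold change of 0.41 (SE 0.59). Neither gene separated the datasets. A gene on the opposite strand, Gm15774, overlaps Eef2k over 2607 bp and had means of 71.8 in NP and 90.01 in P.

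Among the release factors, the intronless Gspt2 gave more eRF3 mRNA than Gspt1. Gspt2 (chrX:94636069-94643244) was at 15.3, 24.2, 62.4 and 39.2 in NP and at 129, 51.3, 51.3 and 19.7 in P. Gspt1 was at 2.04, 21.9, 25.0 and 3.62 in NP and at 32.3, 1.597, 1.41 and 0.348 in P. Gspt2 was higher in all 8 libraries, by ratios from 1.11 to 56.5. Log2 fold changes were 0.70 (SE 0.71) for Gspt2 and −1.22 (SE 1.15) for Gspt1, both with overlapping datasets and the same sign under every alternative. Etf1, which encodes the stop codon reader eRF1, had means of 23.7 ± 17.05 in NP and 30.9 ± 20.03 in P (SD, n = 4). How reads of such paired genes were separated in mapping was not stated in the sources used here.

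**Figure D4:**
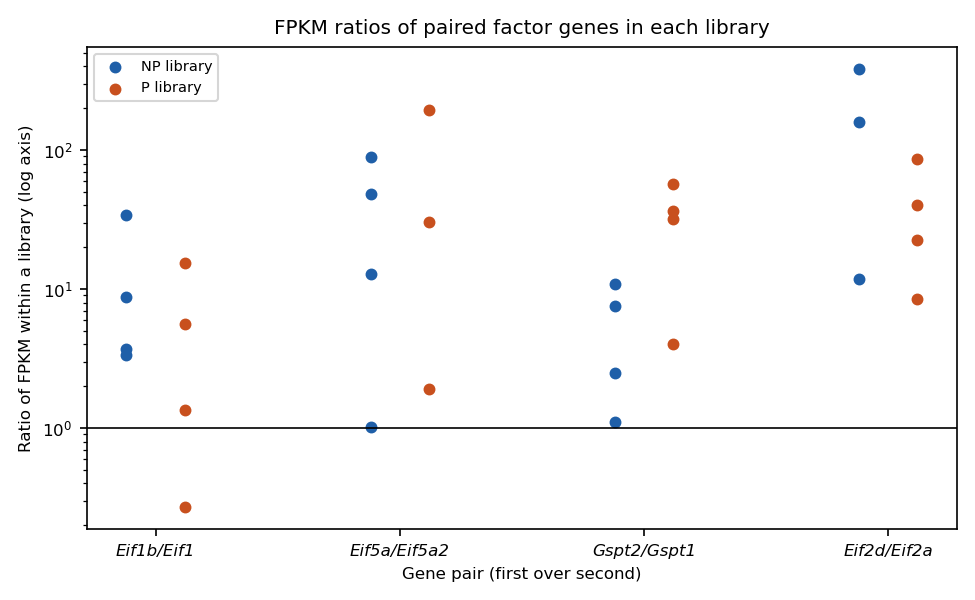
Ratio of the FPKM of the first to the second gene of a pair within each NP library (blue) and P library (orange), on a logarithmic axis with a line at 1, leaving out libraries in which the second gene was at 0. The first gene exceeded the second in each library shown except for Eif1b over Eif1 in P replicate 3, at 0.270.

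The scaling between libraries decided which members appeared to lean towards polysomes. The common median was taken over all 14292 genes tested, with values of 0 among them. Genes above 0 numbered 11703 to 13753 in the NP libraries and 9139 to 11339 in the P libraries. Whether this difference had a part in the direction under the common median was not tested. With each library scaled to a common median FPKM, 0 members had an unadjusted p below 0.05 with lower values in P, against 2.73% of all genes, and 8 had one with higher values, against 7.0% of all genes. These 8 were Eef1a1, Eef1d, Eef1g, Eef2k, Eif2s2, Eif3a, Eif5a and Gspt2. Without overlap and higher in P were 6 members (Eef1a1, Eef1d, Eif2s2, Eif3a, Eif5a and Gspt2), against 5.04% of all genes, with 0 members lower, against 2.09%. Only 6 of 42 log2 fold changes were below 0, against 41.9% of all genes. The median of all genes was 0.21 on this scale and that of the members lay 0.60 above it. After quantile normalization 3 members had an unadjusted p below 0.05 with lower values in P, Eif1ad, Eif3h and Eif6, against 4.04% of all genes. In the other direction there were 3, Eif2a, Eif2s2 and Eif3a, against 2.55% of all genes. Eif6 was then without overlap and lower in P, against 2.53% of all genes, and Eif2a and Eif3a without overlap and higher, against 4.62%. No member passed the adjusted threshold under either scaling (0.0% of all genes), with replicate numbers as a block (0.007% of all genes) or with voom on the recovered reads (0.471%). The sign of the fold change was the same in every alternative for 16 of the 42 genes, of which Eif1ad, Eif2b5, Eif3e, Eif3f, Eif3h and Gspt1 were below 0 and Eef1a1, Eef1g, Eef2k, Eif2a, Eif2s2, Eif3a, Eif5, Eif5a, Eif5b and Gspt2 above 0. The filters and the replicate block leave a fold change as it is. The common median raised every member, so a sign above 0 could not turn under it. With a library left out, Eef2k fell to 0.007, Eif5 to 0.008 and Eef1a1 to 0.059. The share of all genes that kept their sign was not counted.

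**Figure D5:**
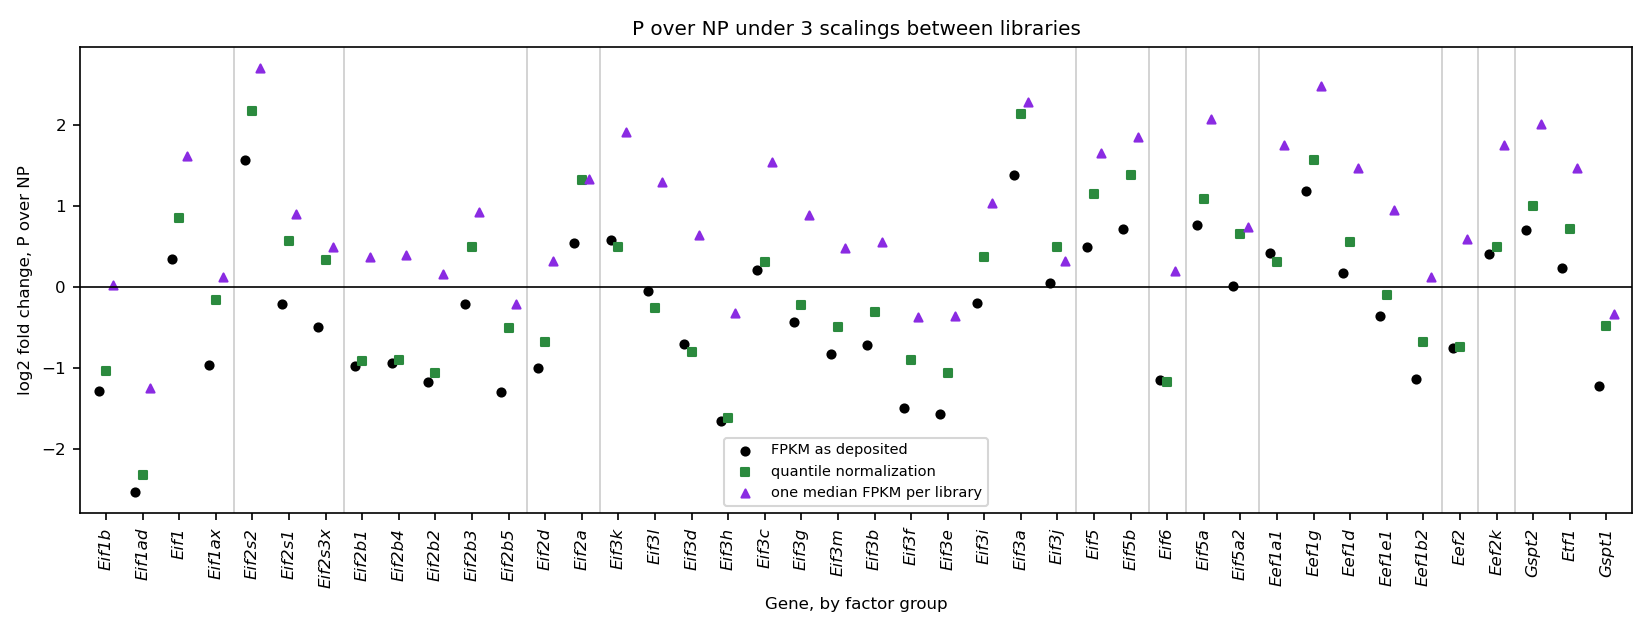
Log2 fold changes of P over NP for the 42 genes with FPKM as deposited (black circles), after quantile normalization (green squares) and with each library scaled to a common median (purple triangles). The common median raised every member, leaving 6 genes below 0, and Eif1ad remained lowest and Eif2s2 highest under it.

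By promoter, the 8 genes with a pyrimidine run at the start had log2 fold changes between −2.53 and 0.41 with a median of −0.95, and the 25 tested genes without a run had a median of −0.21. Of the 8 genes, 7 were below 0, Eef1a1 at 0.41 being the exception, against 13 of the 25 without a run and 71.4% of all genes. With libraries scaled to a common median these counts were 3 of 8 and 1 of 25. Their median level over the 8 libraries was 59.7 FPKM, against 37.3 for the genes without a run.

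Other genes of the pathway were counted from lists of 58 genes, of which 52 were tested and 0 were called. At an unadjusted p below 0.05, 6 were lower in P, against 9.47% of all genes, and 2 were higher, against 0.476%. The cap-binding group with poly(A)-binding proteins had 13 genes with a median log2 fold change of 0.35 and 1 such gene, Eif4b. The eIF2 kinases and phosphatase subunits had 6 genes and none. Of the genes for eIF2 assembly, reinitiation and eIF5 mimics, 9 were tested, Ddx3x and Bzw1 having higher and Mcts2 lower values in P. Recycling and rescue, selenocysteine insertion and release of eIF6 gave none among 5, 2 and 1 genes tested, and 2 of 9 mitochondrial factors, Tufm and Mrrf, were among those lower in P. For the lower values, 6 of 52 is near the share of all genes.

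The smallest p-values were those of enzymes that modify eIF5A and eEF2. Dhps, the first enzyme of hypusine formation on eIF5A, was at 23.3, 30.1, 16.8 and 21.0 in NP and at 0.916, 1.48, 0.0968 and 1.61 in P. Dph3, required for the diphthamide residue of eEF2, was at 87.4, 82.9, 148 and 213 in NP and at 24.0, 16.4, 16.5 and 23.0 in P. Each P library was below each NP library for both, as for 5.92% of all genes tested. Of the 52 listed genes tested, 3 separated in this way, the other being Tufm, which is near that share. The log2 fold changes were −3.60 (SE 0.79) and −2.58 (SE 0.58), both with a limma adjusted p of 0.344, and under the common median they were −2.69 and −1.28. Neither was called in any alternative, the adjusted p ranging from 0.115 to 0.731 for Dhps and from 0.116 to 0.731 for Dph3. The other 5 modification genes tested had values in P that overlapped with NP.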

How the data were processed

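RNA-seq of 4 NP and 4 P libraries was used, from 4 independent SSP-profiles. RNA was rRNA-depleted, reverse transcribed with oligo(dT) and random primers and amplified. Trim Galore 0.4.1, HISAT2 2.0.5 and the GRCm38 assembly are named in the submitters' processing notes, and the authors deposited FPKM values of 25574 genes per library, with no further normalization between libraries. The tables of the authors' comparisons (DESeq2 fold changes, p-values and mean ratios) were not used. FPKM was tested 2-sided as log2(FPKM + 1) with limma 3.58.1 in R 4.3.3 (lmFit, eBayes with trend, no block) for the 14292 genes whose mean exceeded 0.1 in P or NP, with adjustment over all of them (Benjamini-Hochberg) and a threshold of 0.1. The fit was tested on simulated data. Fold changes are on the log2(FPKM + 1) scale, which understates low genes. Reads were recovered from FPKM steps for 14084 of 15585 genes (90.4%), 7106 of them with a searched length, within 0.01 of a read plus 2e-06 per read. The alternatives were other scalings, pseudocounts and filters, a replicate block, voom on these reads and leaving out each library. Values per library are given for the highest member of each factor group, members with an unadjusted p below 0.05 or no overlap, paralog pairs and the extremes of eIF2, eIF2B, eIF3 and eEF1, and for Eif3l, Eif3d, Dhps and Dph3, chosen after their values were seen. Members and lists were chosen with earlier results of these data known. Python 3.11.15 and matplotlib 3.10.9 were used for summaries and figures.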

Additional observations from a re-analysis of the deposited data

Results flagged for a closer look

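In groups of 4 libraries, a value of log2(FPKM + 1) was singled out where its gap to the nearest other library took more of the group's range than Dixon's critical value allows. Of 85 groups tested, 5 (5.88%) held such a library, where chance gives about 1 in 20. Eif3l was at 144 in NP replicate 4, against 1719 to 2706 in the other NP libraries. Eif2s2 was at 4.15 in P replicate 4, against 19.3 to 25.6 in the other P libraries. Eif2s3x was at 0.491 in P replicate 2, against 3.82 to 5.02. Eif2d was at 66.9 in P replicate 3, against 30.9 to 34.5. Eif1a was at 0.109 in NP replicate 1 and at 0 in the others. Its flag follows from the tied values of 0, for which the rate of 1 in 20 does not hold.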

How the results depend on the processing

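No member passed the threshold in any alternative, and the smallest adjusted p was 0.245, with voom on recovered reads, an alternative chosen after seeing the data. Of all genes, 5 were called with a pseudocount of 0.1 or a filter above an FPKM of 1, 0 without a filter, after quantile normalization or with median scaling, and 61 with voom, against 3. Leaving out single libraries gave 0 to 5, with 5 without P replicate 1. Deviations of libraries with the same number correlated at 0.139, 0.0518, 0.251 and 0.155 over 11374 genes, and every library but NP replicate 2 correlated best with its own number, as a hint from the data. As no source states that a number marks 1 gradient, these are not treated as pairs. With the replicate block 1 gene was called, and the smallest adjusted p of a member was 0.269. The members' median relative to all genes was 0.42 with a pseudocount of 0.1, 0.60 with median scaling, 0.64 with voom, and −0.22 (without NP replicate 4) to 0.24 (without P replicate 2) when single libraries were left out. Members without overlap numbered 3 after quantile normalization, where 2.53% of all genes were lower and 4.62% higher in P. They numbered 6 with median scaling, where 2.09% of all genes were lower and 5.04% higher. Without single libraries they numbered 1 to 6, with 5 without P replicate 1, 6 without P replicate 4 and 3 without NP replicate 3. The share of all genes was not counted for these fits, and fewer libraries separate more readily.

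Fold changes of members that turned were −0.80 for Eif5a2 with a pseudocount of 0.1, 0.56 for Eif2s1, 0.33 for Eif2s3x, 0.50 for Eif2b3 and 0.37 for Eif3i after quantile normalization, and 0.22 for Eif2b3, 0.40 for Eif3l, 0.16 for Eif3i and −1.38 for Eif5a2 with voom. With median scaling they were 0.95 for Eef1e1, 0.12 for Eef1b2, 0.59 for Eef2, 0.025 for Eif1b, 0.13 for Eif1ax, 0.90 for Eif2s1, 0.49 for Eif2s3x, 0.32 for Eif2d, 0.37 for Eif2b1, 0.39 for Eif2b4, 0.16 for Eif2b2, 0.92 for Eif2b3, 1.30 for Eif3l, 0.64 for Eif3d, 0.88 for Eif3g, 0.48 for Eif3m, 0.55 for Eif3b, 1.04 for Eif3i and 0.19 for Eif6. Without single libraries the log2 fold change ranged from −0.16 to 0.62 for Eef1d, −0.78 to 0.045 for Eef1e1, −0.26 to 0.88 for Eif1, −1.07 to 0.36 for Eif2b3, −0.98 to 0.31 for Eif2s1, −0.98 to 0.078 for Eif2s3x, −0.69 to 1.30 for Eif3c, −0.64 to 0.33 for Eif3i, −0.10 to 0.22 for Eif3j, −0.47 to 1.33 for Eif3k, −1.04 to 0.40 for Eif3l, −0.81 to 0.62 for Eif5a2 and −0.33 to 1.04 for Etf1. The cause was not tested.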

Other observations

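The Argonaute genes, which act in RNA silencing and not in initiation, were measured under Eif2c symbols. Of the 6 rows, 2 were at 0 in each library and 4 were tested, with 0 called. Eif2c4 was at 0.0451, 0, 1.34 and 0.493 in NP replicates 1 to 4 and at 0.0613, 1.93, 164 and 0.161 in P replicates 1 to 4, so a single P library held nearly all of it. Its log2 fold change was 1.84 (SE 1.31, limma adjusted p = 0.637). Eif2c2 was at 27.2, 9.55, 23.3 and 8.50 in NP and at 2.27, 3.70, 26.3 and 0.136 in P, with a log2 fold change of −1.79 (SE 0.99, limma adjusted p = 0.541). P replicate 3 was the highest P library for Eif2c1, Eif2c2, Eif2c3 and Eif2c4.

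Across the 42 factor genes with recovered reads, gene length and mean FPKM had a Spearman rho of −0.598. The points are genes and no replicates, and both measures share the recovered length.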
